A study of Mus musculus with 82 samples.

Results

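The genes described here are 8 genes of antigen presentation by MHC class II, read in naive CD4 T cells sorted from the spleens of inbred mice. They were chosen by name, with earlier results of these data known: H2-Aa, H2-Ab1 and H2-Eb1, H2-Oa and H2-Ob, H2-DMa, Cd74, and Ciita. Each was read from 1 probe set, the one with the highest mean among those that carry that symbol alone, so that they are 8 of the 19752 genes measured in this way. The probe sets are 10450154 for H2-Aa, 10444291 for H2-Ab1, 10444298 for H2-Eb1, 10444223 for H2-Oa, 10444284 for H2-Ob, 10444229 for H2-DMa, 10456005 for Cd74 and 10433507 for Ciita. The 6 H2 genes are annotated on chromosome 17, Cd74 on chromosome 18 and Ciita on chromosome 16.

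MHC class II molecules are pairs of an alpha and a beta chain that show peptides to CD4 T cells. H2-Aa and H2-Ab1 encode the pair called I-A, and H2-Eb1 encodes the beta chain of I-E, whose alpha chain is H2-Ea. The invariant chain Cd74 blocks the peptide groove and guides the pair to endosomes, where H2-DM, of which H2-DMa is the alpha chain, releases the remnant of Cd74 and loads peptide. H2-O, made of H2-Oa and H2-Ob, inhibits H2-DM. Ciita is the co-activator that switches on class II genes through the RFX, CREB and NF-Y proteins bound to the X and Y boxes of their promoters. In the mouse, B cells and dendritic cells carry class II on their surface, whereas resting T cells are known for lacking it.

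The mice were male, and sorted cells had CD3, CD4 and CD62L on their surface and lacked CD8, CD11c, CD25, CD49b, Gr1 and Ter119, among other markers. Each of the 82 Affymetrix ST1.0 arrays held RNA from a pool of mice, and no strain was treated. The labels give an age of 6 weeks, and the series description gives a younger age and also speaks of bone marrow granulocytes. The 40 strain groups were 129S1/SvImJ, A/J, AKR/J, BALB/cByJ, BPL/1J, BTBR T+ tf/J, C3H/HeJ, C57BL/10J, C57BL/6J, C57BLKS/J, C57L/J, CAST/EiJ, CBA/CaJ, CBA/J, CE/J, DDY/JclSidSeyFrkJ, FVB/NJ, JF1/Ms, KK.Cg-Ay/J, LGJ, LP/J, MA/MyJ, MRL/MpJ, MSM/Ms, NOD/ShiLtJ, NON/ShiLtJ, NOR/LtJ, NZB/BINJ, NZW/LacJ, P/J, PL/J, PWD/PHJ, RIIIS/J, SEA/GnJ, SJL/J, SM/J, SWR/J, WSB/EiJ and arrays titled C57BR and DBA2. The last of these carry the background labels CBA/CaJ and DBA/1LacJ, which differ from their titles, and they were kept as groups named by title. C57BL/6J had 5 arrays, SWR/J had 1 and the other 38 groups had 2.

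Promoter windows were read for 5 of the 8 genes. H2-Ab1 and Ciita had no promoter entry, and Cd74 was left out by choice, so whether its promoter holds the motifs is not given. Of the 5, 4 show the regulatory sequence that class II genes share, and they are printed here because one of the 4, H2-Ob, had the widest strain range of the 8 genes, while the ranges of H2-Aa and H2-Eb1 were narrow once PL/J replicate 2 and A/J replicate 2 were left out. The stretches are from RefSeq on GRCm38.p6, of the reference strain, and run 5′ to 3′ on the strand of the gene. Capitals mark GCAAC, from the X box, and ATTGG, the Y box letters that are the reverse complement of CCAAT.
H2-Aa (chr17:34287844-34287933, minus strand): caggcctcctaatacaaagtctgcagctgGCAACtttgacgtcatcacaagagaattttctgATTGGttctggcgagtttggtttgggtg
H2-Eb1 (chr17:34305757-34305846, plus strand): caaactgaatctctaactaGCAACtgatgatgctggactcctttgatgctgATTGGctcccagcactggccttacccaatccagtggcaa
H2-Oa (chr17:34092269-34092358, plus strand): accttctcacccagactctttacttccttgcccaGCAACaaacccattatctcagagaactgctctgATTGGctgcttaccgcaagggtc
H2-Ob (chr17:34238795-34238884, plus strand): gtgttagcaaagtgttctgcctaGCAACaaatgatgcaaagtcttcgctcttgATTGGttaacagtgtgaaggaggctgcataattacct
Between the motifs lie 28 bases in H2-Aa, 27 in H2-Eb1, 28 in H2-Oa and 25 in H2-Ob. GCAAC lies in 35.2% of the 32851 promoter windows of 300 bases on either strand, and ATTGG in 37.4%. GCAAC followed by ATTGG after 25 to 28 bases lies in 66 windows, or 0.201%, a range of spacings that was set after these 4 windows were read. These belong to 62 genes, among them 5 H2 genes, the fifth being H2-Eb2. The 2 windows of H2-DMa do not hold the pair of motifs with this spacing. The match is one of letters, and binding was not measured.

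Naive CD4 T cell markers were high on every array. The log2 mean over 10 measured markers of naive CD4 T cells lay between 11.77 and 12.20, and Cd4, the coreceptor that defines these cells, was read at an intensity of 2780 to 5790. B cell marker signal was uneven: the log2 mean over 20 B cell markers had a median of 5.98, but stood at 8.32 on PL/J replicate 2 and at 7.16 on A/J replicate 2. Ms4a1, the B cell surface protein CD20, was read at 32 and 385 on the arrays of PL/J and at 27.2 and 231 on those of A/J. Cd79a, part of the B cell receptor, was read at 47.3 and 317 in PL/J and at 35.4 and 131 in A/J. Other lists were also highest on PL/J replicate 2, which reached 7.29 for 11 neutrophil markers, 6.76 for 11 markers of monocytes and macrophages and 8.59 for 2 markers of CD8 T cells. For 5 erythroid markers it reached 7.82 and A/J replicate 2 reached 7.80. The mean of 11 dendritic cell markers ranged from 5.99 to 6.70 and was highest on C57BL/6J replicate 5, and that of 12 markers of activated or memory CD4 T cells ranged from 7.19 to 8.01 and was highest on A/J replicate 2. The part of neutrophil, monocyte and CD8 T cell signal in the class II readings was not tested. Results that rest on PL/J replicate 2 or A/J replicate 2 are therefore given with and without these arrays.

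The 8 genes fell into different patterns. In H2-Ob, H2-DMa and H2-Oa the SD of strain means exceeded the SD between arrays of a strain. H2-Aa and H2-Ab1 differed mainly between the arrays of PL/J and of A/J, and Ciita between those of PL/J. The median difference between the 2 arrays of a strain (log2) was 0.15 for H2-Ob, 0.28 for H2-DMa and 0.18 for both H2-Oa and H2-Aa. A moderated F-test in limma called 4 of the 8 genes at an adjusted p threshold of 0.05 (H2-Oa, H2-Ob, H2-DMa and Cd74), against 47.6% of all 24922 probe sets. With the B cell marker mean of each array in the model it called these 4 and H2-Eb1, against 46.3% of all probe sets. Strain means had a median SD of 0.40 (log2) over the 8 genes, against 0.14 over the whole table, and of 0.25 against 0.14 without PL/J replicate 2 and A/J replicate 2. Without PL/J replicate 2 and A/J replicate 2 the F-test called 5 of 8, against 48% of all probe sets. The share of called members was thus close to that of all probe sets, and the genes differed in the size of the spread.

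**Figure D1:**
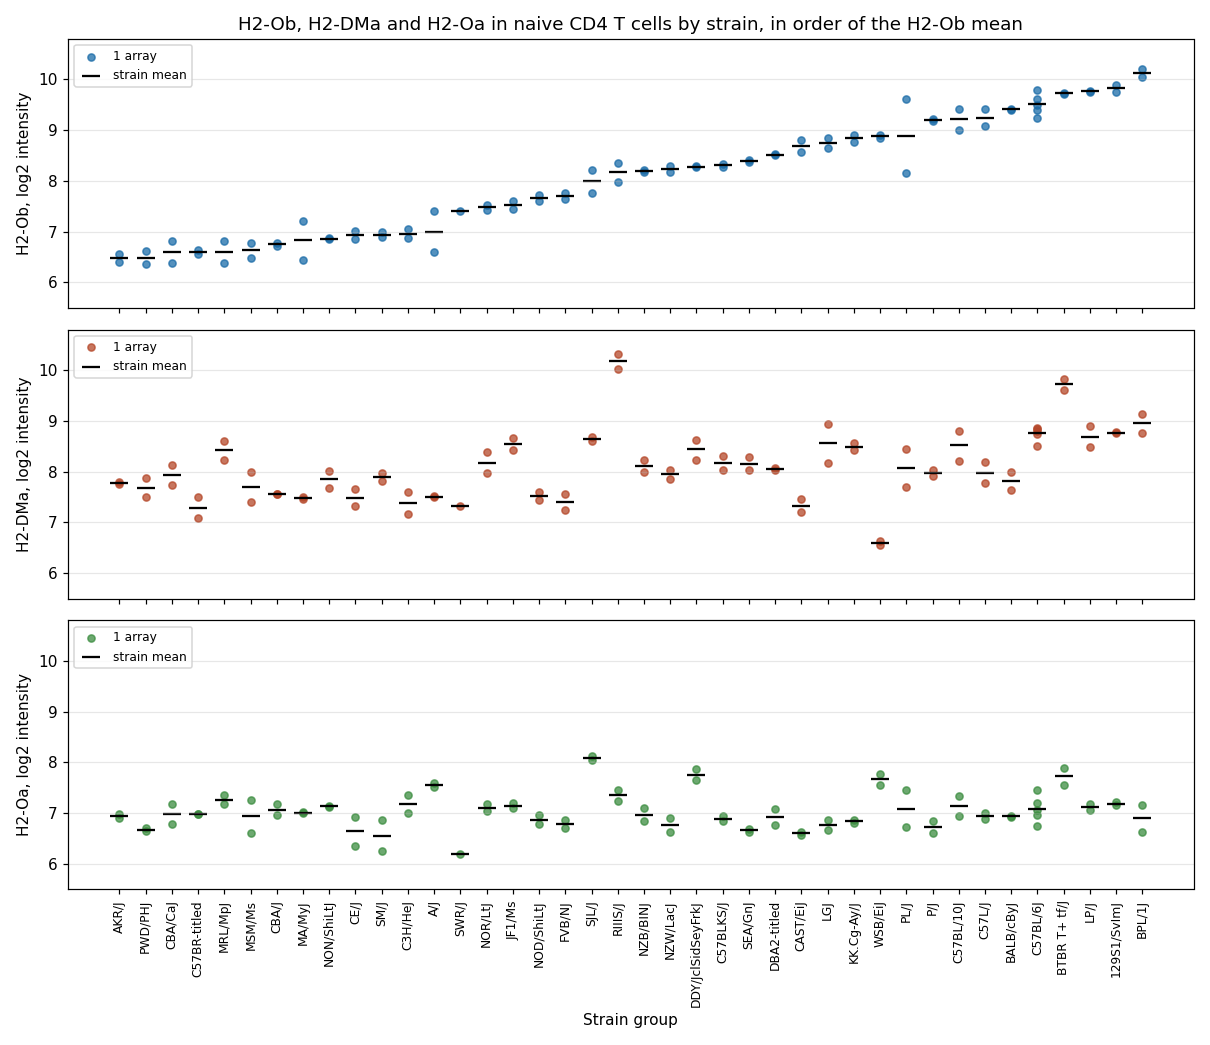
Log2 intensity of H2-Ob, H2-DMa and H2-Oa on each array (points) and the strain mean (bars) in 40 strain groups, placed in the order of the H2-Ob mean. H2-Ob rises from 6.48 in AKR/J to 10.13 in BPL/1J with most points close to their mean, and the arrays of PL/J and A/J are far apart in H2-Ob.

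H2-Ob, the beta chain of the H2-DM inhibitor H2-O, had the widest range of the 8 genes. Its strain mean intensity ran from 89.1 in AKR/J to 1120 in BPL/1J, a 12.6-fold range. The arrays read 94.3 and 84.2 in AKR/J, 82.6 and 97.7 in PWD/PHJ, 112 and 83.3 in CBA/CaJ, and 112 and 83.8 in MRL/MpJ. These readings lay below the median of all values, 113, and whether background signal limits the low end of the range was not tested. At the other end BPL/1J read 1180 and 1060, 129S1/SvImJ read 864 and 956, LP/J read 881 and 860, and BTBR T+ tf/J read 843 and 850. The 5 arrays of C57BL/6J read 726, 894, 780, 671 and 606, so that they did not overlap with the arrays of AKR/J, PWD/PHJ, CBA/CaJ or MRL/MpJ. The SD of strain means was 1.12 on the log2 scale, against an SD of 0.25 between arrays of a strain, and 0.95 of the variance lay between strains (limma F-test, adjusted p = 3.51e-26). The level in a whole sorted sample cannot separate fewer expressing cells from less RNA per cell, and probe binding changed by sequence differences between strains was not tested, since no probe sequences were used; this holds for each of the 8 genes.

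The order of the strains in H2-Ob held few gaps larger than the SD between arrays. With 40 strains in the order most gaps are bound to be small, so their count cannot separate a continuous order from clusters. Of the 39 gaps between neighbours in the order, 4 exceeded the SD between arrays, and all other neighbours did not differ beyond that spread. The largest gap, 0.41 on the log2 scale, lay between A/J and SWR/J, with 27 strains above it. The arrays of A/J stood at 6.59 and 7.41, and SWR/J had 1 array. Without PL/J replicate 2 and A/J replicate 2 the SD between arrays was 0.17, and the gaps were not counted again. In limma contrasts with C57BL/6J, 30 of 38 strains were lower in H2-Ob and none was higher. The largest differences were -3.03 ± 0.20 (SE) in AKR/J (adjusted p = 1.17e-17) and -3.02 in PWD/PHJ (adjusted p = 6.12e-18), followed by -2.92 in CBA/CaJ and -2.91 in both the C57BR-titled arrays and MRL/MpJ. The other 8 strains were not called: P/J (-0.31), C57BL/10J (-0.29), C57L/J (-0.26), BALB/cByJ (-0.10), BTBR T+ tf/J (0.22), LP/J (0.26), 129S1/SvImJ (0.32) and BPL/1J, at 0.62 with an adjusted p of 0.0627. BPL/1J was called higher without PL/J replicate 2 and A/J replicate 2 (0.62, adjusted p = 0.0034).

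Haplotypes of the H2 region are not in the labels. As background, AKR/J, CBA/J, CBA/CaJ and C3H/HeJ are known carriers of the k haplotype and had H2-Ob strain means of 6.48 to 6.96 (log2). C57BL/6J, C57BL/10J, 129S1/SvImJ and LP/J are known carriers of the b haplotype and had means of 9.22 to 9.83. These strains were picked after their values were seen, and no test was made. Other strains had means at the level of the first group, such as PWD/PHJ (6.49), MSM/Ms (6.63) and SM/J (6.94). BALB/cByJ (9.41) was at the level of the second group, and many strains lay between the groups. Whether H2-Ob follows the haplotype was not tested. The values of CBA/J and CBA/CaJ, 6.75 and 6.59, lay together, as did those of C57BL/6J and C57BL/10J, 9.51 and 9.22.

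Across all 38 strains and 8 genes, 304 contrasts with C57BL/6J were made, all of which share its 5 arrays. A total of 12, or 3.95%, were called higher, against 2.31% of the contrasts over all probe sets. Of the 12, 4 were for H2-Oa, 2 for H2-DMa and 6 for H2-Aa, H2-Ab1, H2-Eb1, Cd74 and Ciita in PL/J or A/J. Those 6 were lost without PL/J replicate 2 and A/J replicate 2, when 13 contrasts in all were called higher (2.39% over all probe sets), 5 of them for Cd74. With the B cell marker mean as a covariate 26 were higher (2.28% over all probe sets), 8 of them for Cd74. That mean includes Cd72, which was highest in C57BL/6J (258, against a strain median of 52.4) and lower in 32 strains. Its part in the added calls was not tested. In the fit without the covariate, 55 of the 304 contrasts, or 18.1%, were called lower, against 5.21% over all probe sets. Of the lower calls, 30 were for H2-Ob, 23 for H2-DMa and 2 for H2-Oa, and the other 5 genes had none. Since the genes were chosen with earlier results of these data known, the share of lower calls is not a test of the set. C57BL/6J, the reference of all contrasts, was among the 5 highest strains in both H2-Ob and H2-DMa. Without the 2 arrays 58 were lower (5.37% over all probe sets), 2 of them for Cd74.

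**Figure D2:**
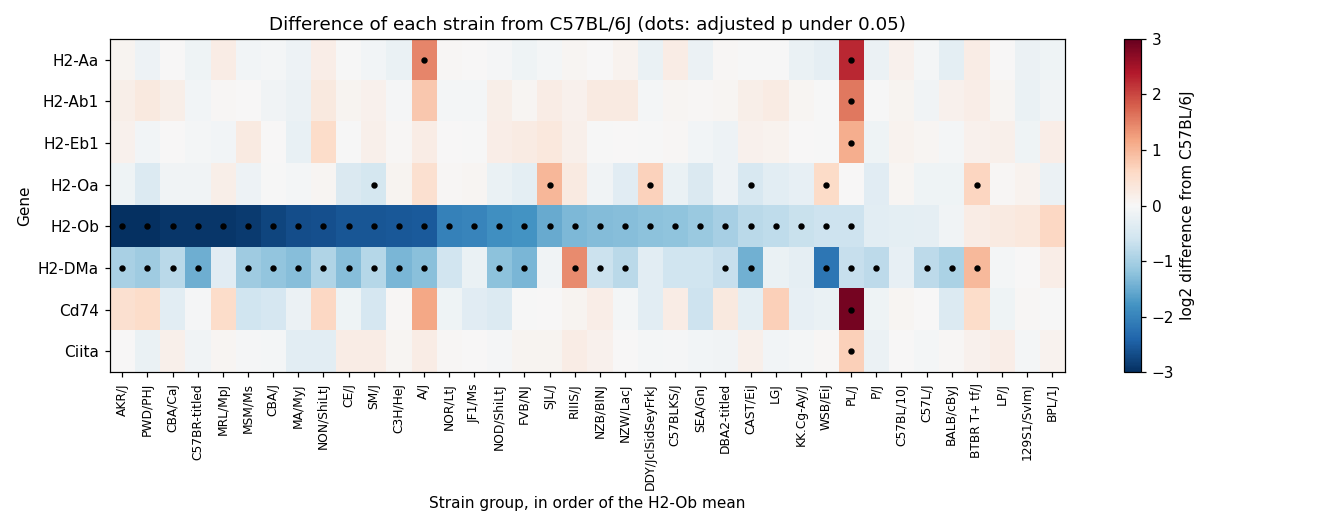
Log2 difference of each of 38 strains from C57BL/6J for the 8 genes, with the strains in the order of the H2-Ob mean; colour gives the difference on a scale that ends at 3 in either direction, and dots mark an adjusted p under 0.05. H2-Ob is lower in 30 strains and H2-DMa in 23, while the high values of H2-Aa, H2-Ab1, H2-Eb1, Cd74 and Ciita lie in PL/J, with H2-Aa also called in A/J.

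H2-DMa, the alpha chain of the peptide loader, shared 4 of its 5 highest strains with H2-Ob (BTBR T+ tf/J, BPL/1J, 129S1/SvImJ and C57BL/6J) and 1 of its 5 lowest, the C57BR-titled arrays, but had other strains at its ends. Its strain mean intensity ran from 96.8 in WSB/EiJ to 1160 in RIIIS/J, a 12-fold range. RIIIS/J read 1050 and 1280, BTBR T+ tf/J read 784 and 910, and the arrays of C57BL/6J read 462, 469, 446, 365 and 431. WSB/EiJ read 99.5 and 94.1, below each array of C57BL/6J and below the median of all values, 113. The SD of strain means was 0.67 on the log2 scale against 0.24 between arrays, and 0.88 of the variance lay between strains (limma F-test, adjusted p = 3.01e-17).

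RIIIS/J was higher than C57BL/6J in H2-DMa by 1.42 ± 0.19 (SE, log2, limma adjusted p = 1.19e-07) and BTBR T+ tf/J by 0.97 (adjusted p = 0.000177). Without BTBR T+ tf/J replicate 2 the number of strains called higher fell from 2 to 1. A total of 23 strains were lower, led by WSB/EiJ at -2.16 (adjusted p = 3.96e-13), the C57BR-titled arrays at -1.47, CAST/EiJ at -1.43, C3H/HeJ at -1.37 and FVB/NJ at -1.36. The largest gap between neighbours was 0.76, between BPL/1J and the 2 highest strains, and 4 of 39 gaps exceeded the SD between arrays. WSB/EiJ and RIIIS/J, the extremes of H2-DMa, had H2-Ob strain means of 8.88 and 8.17, neither of them at an end of the H2-Ob order.

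H2-Oa, the alpha chain of H2-O, had a smaller spread of strain means than its partner H2-Ob. Its strain mean intensity ran from 73.1 in SWR/J, which has 1 array, to 272 in SJL/J, a 3.72-fold range. SJL/J read 278 and 266, above all 5 arrays of C57BL/6J (108, 133, 125, 147 and 175). The SD of strain means was 0.36 on the log2 scale against 0.21 between arrays (limma F-test, adjusted p = 7.12e-08). H2-Oa was higher than in C57BL/6J in SJL/J (1.00 ± 0.17 SE, adjusted p = 2.03e-05), DDY/JclSidSeyFrkJ (0.68), BTBR T+ tf/J (0.64) and WSB/EiJ (0.58). It was lower in SM/J (-0.53) and CAST/EiJ (-0.48), and neither was called when C57BL/6J replicate 4 or replicate 5 was left out.
SJL/J, the highest strain in H2-Oa, was lower than C57BL/6J in H2-Ob (-1.52, limma adjusted p = 8.45e-08), and the 2 chains thus stood in opposite directions there.

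The classical chains were at similar levels in nearly all strains and high on single arrays. For H2-Aa and H2-Ab1 these levels were low, with means at percentiles 23.1 and 24.7 of all probe sets. Cd74 and Ciita, described below, lay at 42.4 and 42.3. Whether such low readings stand above background signal was not tested. H2-Aa, the I-A alpha chain, read 41.1 and 1120 on the 2 arrays of PL/J and 52.2 and 299 on those of A/J, while the arrays of C57BL/6J read 42.3, 40.8, 37.5, 43.5 and 66.3. The difference between the arrays of PL/J was 4.76 on the log2 scale, and the median over 38 strains was 0.18. The SD of strain means, 0.45, was below the SD between arrays, 0.62, and the F-test in limma did not call the gene (adjusted p = 0.337). H2-Ab1, the I-A beta chain, read 45.8 and 410 in PL/J and 56.4 and 113 in A/J (F-test, adjusted p = 0.401). H2-Eb1, the I-E beta chain, read 164 and 754 in PL/J and 172 and 220 in A/J (F-test, adjusted p = 0.213).

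Without PL/J replicate 2 and A/J replicate 2, the strain means of H2-Aa lay between 36.8 in BALB/cByJ and 53.1 in C57BLKS/J, a 1.44-fold range in place of 5.82-fold. Those of H2-Ab1 then spanned 1.42-fold in place of 3.46-fold. H2-Aa in PL/J was 2.25 above C57BL/6J on the log2 scale with both arrays of PL/J, and -0.14 with replicate 1 alone, which was not called. The call of H2-Aa in A/J (1.47, limma adjusted p = 0.0471) was likewise lost, at 0.21. H2-Ab1 and H2-Eb1 in PL/J moved from 1.59 and 1.08 to 0.01 and -0.02. H2-Eb1 kept a range of 1.72-fold, from 142 in MA/MyJ to 245 in NON/ShiLtJ, and was then called by the F-test (adjusted p = 0.0146), with NON/ShiLtJ 0.56 above C57BL/6J (adjusted p = 0.000727). The 2 arrays of NON/ShiLtJ read 285 and 210. The higher of them also had more B cell signal, with Ms4a1 at 43.3 against 23.9 and B cell marker means of 6.06 and 5.84. The part of that signal in the call was not tested on these arrays alone.

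Cd74, the invariant chain, showed both patterns. It read 112 and 3340 on the arrays of PL/J and 94.2 and 376 on those of A/J, and the 5 arrays of C57BL/6J read 77.2, 88.6, 89.3, 70.5 and 94.0. PL/J was 2.88 ± 0.48 (SE, log2) above C57BL/6J (limma adjusted p = 8.74e-06), which fell to 0.43 and was not called without the 2 arrays. The F-test called Cd74 with all arrays (adjusted p = 0.0114) and without those 2 (adjusted p = 1.79e-06), when the SD of strain means was 0.35 against 0.23 between arrays. Strain means then ran from 54 in SEA/GnJ to 137 in LGJ, a 2.54-fold range. LGJ read 190 and 99.0, NON/ShiLtJ read 184 and 90.9, MRL/MpJ read 122 and 123, and SEA/GnJ read 56.0 and 52.1, so that LGJ and NON/ShiLtJ rest on unequal arrays while MRL/MpJ and SEA/GnJ do not.
Without the 2 arrays, Cd74 was higher than in C57BL/6J in 5 strains, namely LGJ (0.72), NON/ShiLtJ (0.63), MRL/MpJ (0.56), PWD/PHJ (0.56) and BTBR T+ tf/J (0.54). It was lower in SEA/GnJ (-0.63) and MSM/Ms (-0.59). The arrays were also unequal in PWD/PHJ (150 and 101), BTBR T+ tf/J (143 and 103) and MSM/Ms (47.8 and 64.3).

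Ciita, the class II co-activator, had the smallest spread of strain means of the 8 genes, an SD of 0.17 on the log2 scale. It read 85.5 and 230 on the arrays of PL/J and 94.8 and 105 on those of A/J. Its strain means ran from 68.5 in MA/MyJ to 140 in PL/J, and without the 2 arrays to 100 in SM/J. The F-test did not call it with all arrays (adjusted p = 0.475) or without those 2 (adjusted p = 0.639).

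**Figure D3:**
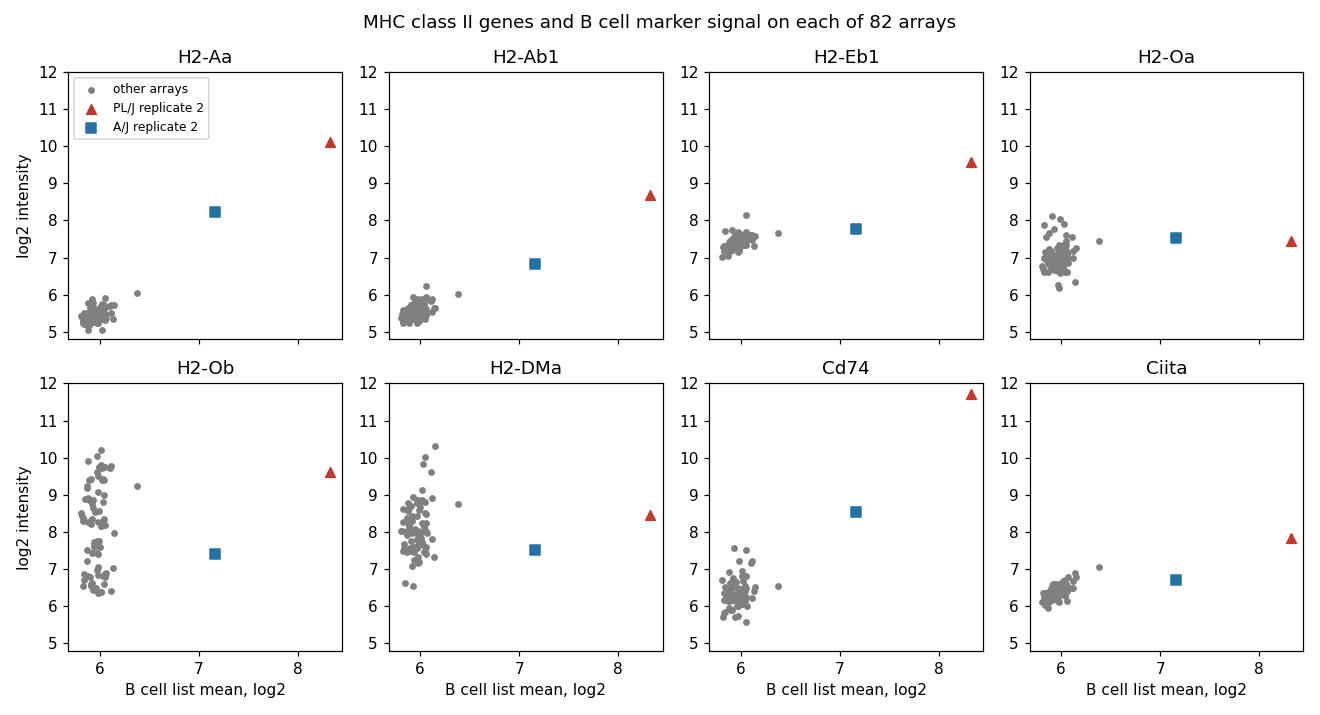
Log2 intensity of each of the 8 genes against the log2 mean of 20 B cell markers on each of 82 arrays; the triangle is PL/J replicate 2 (B cell mean 8.32) and the square A/J replicate 2 (7.16). In H2-Aa, H2-Ab1 and Cd74 both arrays stand above all others, while in H2-Ob and H2-DMa they lie inside the range of the other arrays.

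The link to B cell signal was tested with a coefficient for each strain, so that the slope rests on differences between arrays of a strain. A positive slope on the B cell marker mean was called for 6 of 8 genes, against 1.66% of all probe sets. It was 2.04 ± 0.09 (SE, log2 per log2) for H2-Aa (limma adjusted p = 6.63e-24), 2.00 ± 0.11 for Cd74 (adjusted p = 8.27e-20), 1.33 ± 0.08 for H2-Ab1 and 0.86 ± 0.07 for H2-Eb1. It was 0.62 ± 0.09 for Ciita and 0.55 ± 0.10 for H2-Ob (adjusted p = 0.000238). H2-Oa (0.26, adjusted p = 0.284) and H2-DMa (0.24, adjusted p = 0.396) were not called. With either PL/J replicate 1 or PL/J replicate 2 left out, 4 of 8 were called, since H2-Ob and Ciita were not.

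These slopes rest largely on PL/J and A/J, and were not the same without them. With PL/J replicate 2 and A/J replicate 2 left out, positive slopes were called for 5 of 8 genes, but also for 43.7% of all probe sets. H2-Ob then had a negative slope, -0.83 ± 0.31 (adjusted p = 0.0224), while H2-Aa kept a slope of 1.22 ± 0.31 (adjusted p = 0.000869). With each array also centred on its median, no gene and 0% of all probe sets were called in limma, although 858 probe sets, 3 of the 8 genes among them, had an unadjusted p under 0.05. The slope of Cd74 was then 3.44 ± 0.71 (adjusted p = 0.173). That of H2-Aa was 0.46 ± 0.61 (adjusted p = 0.964) and that of H2-Ob 0.23 ± 0.80 (adjusted p = 0.989), so neither slope held after centring.

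**Figure D4:**
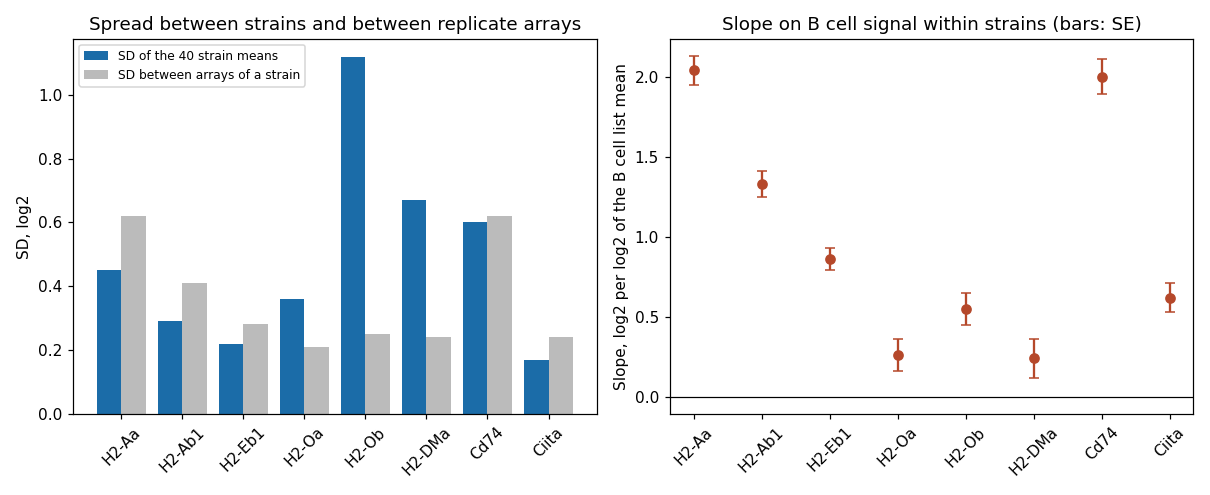
Left, SD of the 40 strain means and SD between arrays of a strain for each of the 8 genes, in log2 units (bars from 0). Right, slope on the B cell marker mean within strains (points) with its SE. H2-Ob and H2-DMa have strain SDs of 1.12 and 0.67 against 0.25 and 0.24 between arrays, and H2-Aa and Cd74 have the slopes of 2.04 and 2.00.

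H2-Ob was also higher on the second arrays of PL/J and A/J than on the first. It read 286 and 785 in PL/J and 96.3 and 170 in A/J. PL/J was 0.62 below C57BL/6J on the log2 scale with both arrays (-0.62, limma adjusted p = 0.0168), and -1.35 with replicate 1 alone (adjusted p = 5.54e-07). H2-DMa read 208 and 350 in PL/J and 181 and 184 in A/J, and without the 2 arrays PL/J was 1.06 and A/J 1.26 lower than C57BL/6J (differences -1.06 and -1.26). The F-tests without the 2 arrays gave adjusted p-values of 1.3e-31 for H2-Ob, 1.61e-17 for H2-DMa and 2.64e-08 for H2-Oa.

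Genes most like each pattern were sought among 11407 genes by Pearson correlation, given as a description. Over the 40 strain means H2-Ob was most like AA388235 (0.70), the class I gene H2-K2 (0.59), Lrig1 (0.56), Acsf2 (0.55) and Nedd4 (0.54). H2-DMa was most like Manbal (0.61), Rgs12 (0.60), Cilk1 (0.59), Chmp6 (0.57) and Ckb (0.57). These lists of H2-Ob and H2-DMa shared no gene; without PL/J replicate 2 and A/J replicate 2 they shared 1, AA388235 (0.71 and 0.57). Over the deviations of the 82 arrays from their strain means, Cd74 was most like H2-Ea (0.93), Cd79b (0.93), Bank1 (0.92), Cr2 (0.91) and Cd22 (0.90), of which Cd79b, Bank1, Cr2 and Cd22 are among the B cell markers. H2-Aa was most like Bank1 (0.97), H2-Ea (0.95), Cr2 (0.95), Cd79b (0.94) and the erythroid gene Slc4a1 (0.93). For H2-Ob the same measure gave Tm6sf1 (0.73), Snora75 (0.73), H2-Ea (0.69) and the B cell markers Cd79b (0.68) and Cd72 (0.68). For H2-DMa it gave G6pc3 (0.73), Nfkbib (0.72), Ftl1 (0.72), AI413582 (0.71) and Mfsd10 (0.70), none of them a B cell marker of the list. Without PL/J replicate 2 and A/J replicate 2, Cd74 was most like H2-Ea (0.62), followed by Nudt22 (0.51), and H2-Aa was most like Ydjc (0.65) and Tlr9 (0.63). H2-Ob was then most like Adamts10 (0.63) and Rgl2 (0.62), with no B cell marker of the list among its 5 genes.

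Other genes of the class II pathway varied too. Of 17 measured genes, 12 were called by the F-test between strains, against the 47.6% of all probe sets given above, and 4 had a positive slope on B cell signal. Among the proteins of the endosome, Lgmn, a protease, ran from 143 in NOR/LtJ to 908 in PWD/PHJ (limma F-test, adjusted p = 1.13e-21), and was higher than in C57BL/6J in 12 strains and lower in 6. Ifi30, a thiol reductase that opens disulphide bonds of antigens, ran from 133 in PWD/PHJ to 750 in C57BL/6J (adjusted p = 1.53e-14) and was lower in 27 strains. PWD/PHJ was thus at opposite ends for Lgmn and Ifi30. Ctss, the protease that trims Cd74 in B cells and dendritic cells, ran from 375 in CAST/EiJ to 906 in MRL/MpJ (adjusted p = 9.93e-10), and Ctsl from 106 in NON/ShiLtJ to 292 in PWD/PHJ (adjusted p = 9.07e-12).

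Among the proteins that bind the X box, Rfxank ran from 329 in BALB/cByJ to 604 in BTBR T+ tf/J (adjusted p = 3.6e-10) and was lower than in C57BL/6J in 24 strains. Rfx5 ran from 227 in MSM/Ms to 425 in SEA/GnJ (adjusted p = 6.18e-05), and Rfxap was not called (adjusted p = 0.117). H2-Ea, the I-E alpha chain, read 47.1 and 960 on the arrays of PL/J and 46.6 and 415 on those of A/J, with a slope of 1.99 ± 0.10 on B cell signal and no call by the F-test (adjusted p = 0.266). Ifi30 (0.69 ± 0.12), Marchf1 (0.49) and Marchf8 (0.31) were the other genes with a called slope, the last 2 being ubiquitin ligases that act on class II. H2-DMb1 and H2-DMb2, the beta chains of H2-DM, share a probe set and were not read.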

How the data were processed

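The submitters' processing notes name Affymetrix Power Tools and RMA; versions and filters are not given in the sources used here. Values were deposited as linear intensities, already normalized, with 24922 probe sets on each of the 82 arrays and array medians of 102 to 142. Intensities were taken to log2 with no filter. Symbols came from the platform annotation (21425 probe sets with 1 symbol, 1399 with several, 2098 with none). limma 3.58.1 in R 4.3.3 (lmFit, eBayes) was fitted to all arrays with 1 coefficient per strain group (42 residual degrees of freedom, prior 8.09), without and with the mean of the B cell markers as covariate. The Benjamini-Hochberg adjustment ran over the whole table, separately for each contrast. The tests were checked on simulated data. Arrays are pools of mice described as biological replicates, and p-values measure the spread between pools; the number of arrays limits the precision. The 5 genes most like H2-Ob, H2-DMa, Cd74 and H2-Aa were named by correlation, and pathway genes came from a list. Members, lists and tests were chosen with earlier results of these data known. Replicate numbers did not pair the samples: over 630 pairs of strains, replicate differences correlated from -0.63 to 0.57, with a median of 0.00. Normalization, filters, the prior, covariates and left-out arrays were varied.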

Additional observations from a re-analysis of the deposited data

Results flagged for a closer look

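In C57BL/6J, the only group with 4 or more arrays, 1 of 8 genes had an array far from the others. H2-Aa stood at 6.05 (log2 intensity) on replicate 5 and at 5.23 to 5.44 on the other 4 arrays, a gap of 0.74 of the whole range. Chance gives such a gap in about 1 in 20 groups, and 8 genes were checked. Ciita (7.06 against 6.11 to 6.39) and H2-Ab1 (6.01 against 5.24 to 5.59) were also highest on replicate 5 but were not flagged. H2-Ob was lowest there (9.24). The same array had the highest median intensity of all, 142, and a B cell marker mean of 6.38, and the part of either in the gap was not tested.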

How the results depend on the processing

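Counts of genes called and of contrasts summed over the 8 genes stayed within 1.5 times of those reported, apart from those named here. For single genes, strains called higher moved with the setting, from 1 to as many as 8 for Cd74, 4 for H2-Ab1 and 4 for H2-Eb1 (each with the B cell covariate), and strains called lower in Cd74 from 0 to 2 (without PL/J replicate 2 and A/J replicate 2). With the B cell marker mean as a covariate, 26 member-by-strain contrasts were called higher in place of 12. Cd72, one of these markers, was itself highest in C57BL/6J, the reference of the contrasts. After median centring without PL/J replicate 2 and A/J replicate 2, a setting added after seeing the data, slopes on B cell signal were called for 0 genes in place of 6, and that of Ciita turned to -0.45. The H2-Ob slope turned to -0.83 without those arrays alone, and was 0.23 with centring as well. Leaving out each array in turn gave 4 to 8 genes for the F-test (8 without PL/J replicate 1, when PL/J rests on replicate 2), 5 to 6 with the covariate, 4 to 6 for the slope, and 10 to 16 higher and 53 to 56 lower contrasts. H2-Aa was called higher in 1 strain rather than 2 in 60 of these 82 fits.

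With the replicate block the F-test called 4 genes, 5 with the covariate, the slope 6, and contrasts 12 higher and 53 lower. It changed the number of strains lower in H2-Oa from 2 to 0 and higher in H2-Aa from 2 to 1.

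With an offset of 32 before log2, Cd74 was not called by the F-test (adjusted p = 0.0568). Removing the dimmest 40 percent of probe sets removed H2-Aa and H2-Ab1. Over all probe sets, positive slopes numbered 413, and 11111 with array weights, 10899 without both arrays, 121 with the dim filter, 90 with erythroid and dendritic covariates, 0 when centred without both arrays and 160 to 1511 with single arrays left out; F-test calls with the covariate rose from 11528 to 23032 with array weights. The causes were not tested.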
